A study of Mus musculus with 4 samples.

Results

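Ad Ib is one of 5 labels that the authors gave to nuclei of floating fat cells. The members are the nuclei of the epigonadal library whose deposited row names that library and the label Ad Ib. They make up 9.72% of the 1564 labelled epigonadal nuclei and 3.01% of the 5043 barcodes of the library, and 1929 nuclei were labelled over both libraries of 4-month mice. The remaining labels there are Ad Ia (106 nuclei), Ad IIa (590), Ad IIb (58) and Ad IIc (658), and 3479 barcodes have no label. Both libraries came from naïve WT males of the C57/BL6 strain on standard chow, aged 4 months. Tissue was digested with DNase I and collagenase II, the floating layer was kept, and nuclei isolated from it were sequenced with the 10x droplet assay, which tags each captured RNA molecule with a unique molecular identifier (UMI). The thymic library pooled 6 thymi, and the sources used here do not say how many animals the epigonadal one came from.

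White adipocytes store triglyceride in 1 large droplet, release fatty acids when catecholamines raise cyclic AMP, take up glucose under insulin, and secrete hormones such as adiponectin and leptin. Growth hormone acts on them through its receptor Ghr. Epigonadal fat is a visceral depot of the mouse that also holds endothelial cells, fibroblasts, pericytes and immune cells, and the floating fraction can carry RNA of any of them. A nucleus holds mainly unspliced and retained RNA, while RNA in the cytoplasm is richer in short mature messages.

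All values below are UMIs summed over the nuclei of a label and scaled to counts per 1e6 UMIs of nuclear-encoded genes (CPM), and ratios are log2 of 2 such sums. Each label is 1 sum from 1 library, so no difference has a replicate check, no test was made and no p-value is given. Intervals are 95% and cover counting error only. The labels were also drawn by the authors from this RNA, so a difference between labels describes the labelling. Ad Ib is shallow: its nuclei held 503 to 4964 UMIs with a median of 678.5, against 1077 in Ad Ia, 1916 in Ad IIa, 714 in Ad IIc and 794 among unlabelled barcodes, and 24 of its nuclei reached 1000 UMIs against 55 of 106 in Ad Ia. With its 120252 nuclear-encoded UMIs, 3 UMIs make 24.9 CPM, and a gene at 0 UMIs has an upper limit of 24.9 CPM (3 counts). The median percent of mitochondrial UMIs was 5.33 in Ad Ib, 3.83 in Ad Ia and 10.9 in the unlabelled barcodes. All Ad Ib nuclei were classed as singlets, and 6 of their barcodes also occur in the thymic library, none on a labelled thymic nucleus.

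Of the 4 genes named as markers of the label, 3 were high in Ad Ib and 1 was low beside the pool of the other labels. All 4 lay below Ad Ia. Malat1, a nuclear long non-coding RNA, stood at 38827 CPM, Fam13a, a gene of the fat-distribution locus, at 1189 CPM (143 UMIs), and Ppara, a fatty-acid-activated nuclear receptor, at 183 CPM (22 UMIs). Against the pooled nuclei of the other 4 labels their log2 ratios were 1.91, 1.86 (interval of Fam13a from 1.59 to 2.12) and 2.70. Ad Ia alone had more of each, with 42891 CPM of Malat1, 2681 of Fam13a and 362 of Ppara. The log2 ratios of Ad Ib to Ad Ia were −0.14, −1.17 and −0.97. Adipoq, which encodes adiponectin and defines mature adipocytes, went against the label: 36 UMIs gave 299 CPM (210 to 414). Its level was 453 CPM in Ad Ia, 449 in Ad IIa, 256 in Ad IIb, 2513 in Ad IIc and 749 in the barcodes without a label. Adipoq was thus lower in Ad Ib than in the remaining labelled nuclei (log2 −1.66) and than in the unlabelled barcodes (log2 −1.30), and against Ad Ia it lay at −0.59 with an interval of −1.23 to 0.01. Among nuclei of at least 1000 UMIs the ratio to Ad Ia was −1.96 (−4.05 to −0.66), and among shallower ones −0.44 (−1.30 to 0.49). A share of 16.4% of Ad Ib nuclei had an Adipoq UMI, beside 35.8% in Ad Ia, 78.1% in Ad IIc and 42.2% of unlabelled barcodes. With every nucleus thinned to 500 UMIs the shares were 11.8% in Ad Ib and 29.5% in unlabelled barcodes. Ad Ib is therefore used here as the authors' name for a group of nuclei and not as a statement of cell type.

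**Figure D1:**
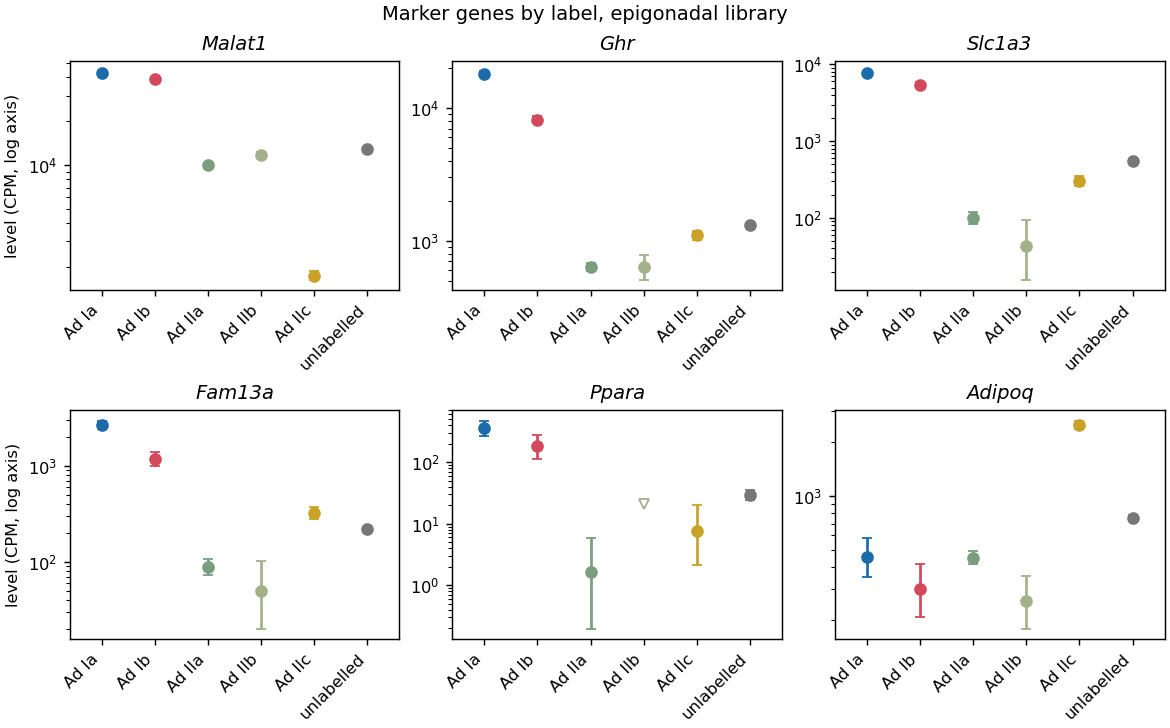
Level of 6 genes in CPM (log axis) for the 5 labels and the unlabelled barcodes of the epigonadal library. Points are sums over nuclei, bars are 95% Poisson intervals (counting error only), and the open triangle is the limit of 3 counts where Ppara has 0 UMIs in Ad IIb. Ad Ib lies below Ad Ia for Malat1, Ghr, Slc1a3, Fam13a and Ppara, and its Adipoq level of 299 CPM lies below that of the unlabelled barcodes.

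Ghr and Slc1a3 were each seen in at least 90.1% of Ad Ib nuclei. Ghr, the growth hormone receptor, had 983 UMIs and 8174 CPM (7671 to 8702) in Ad Ib, against 18127 CPM in Ad Ia, 632 in Ad IIa, 632 in Ad IIb, 1098 in Ad IIc and 1315 in unlabelled barcodes. Slc1a3, a glutamate and aspartate transporter, had 656 UMIs and 5455 CPM in Ad Ib, against 7619 CPM in Ad Ia, 100 in Ad IIa, 42.6 in Ad IIb, 302 in Ad IIc and 553 in unlabelled barcodes. Both therefore separate Ad Ia and Ad Ib from the 3 Ad II labels by more than the counting interval, with Ad Ib the lower of the pair. A UMI of Ghr was present in 96.1% of Ad Ib nuclei (91.6 to 98.5, Clopper-Pearson) and one of Slc1a3 in 90.1% (84.2 to 94.4). In the unlabelled barcodes, whose median depth was similar, the shares were 49.8% and 18.4%, and in Ad IIa 59.8% and 11%. Thinned to 500 UMIs the Ad Ib shares were 92.8% and 86.2%, beside 33.9% and 12.0% of unlabelled barcodes. The signal was spread over nuclei: the richest nucleus held 2.34% of the Ghr UMIs and 3.20% of those of Slc1a3. Fam13a was seen in 54.6% of Ad Ib nuclei and Ppara in 11.2%.

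**Figure D2:**
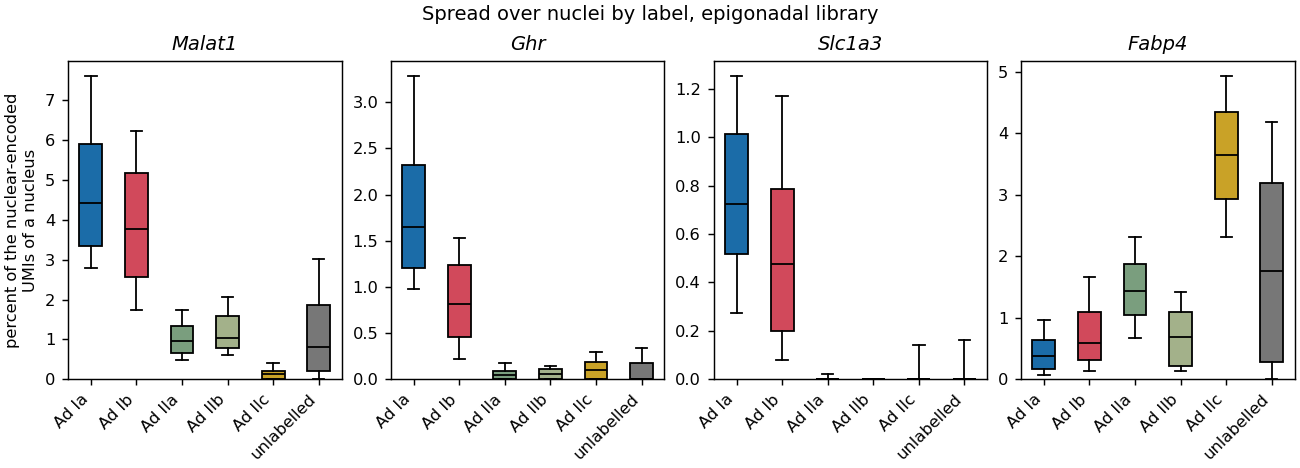
Percent of the nuclear-encoded UMIs of a nucleus that fall on Malat1, Ghr, Slc1a3 and Fabp4, by label. Boxes span the quartiles with the median as a line, and whiskers reach from the 10th to the 90th percentile of nuclei. The median Ad Ib nucleus held 0.817% Ghr and 0.475% Slc1a3 UMIs, and 0.585% Fabp4 against 3.65% in Ad IIc.

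Ghr, Slc1a3, Fam13a and Ppara were each called higher in Ad Ib than in the unlabelled barcodes, and the bases just before their starts are printed for that reason. Ghr and Slc1a3 both lie on chromosome 15. The sequences are RefSeq's on GRCm38.p6, read 5′ to 3′ on the strand of the gene, for Slc1a3 at chr15:8710808-8711057 (minus strand), Ghr at chr15:3583353-3583602 (minus strand), Fam13a at chr6:59024503-59024752 (minus strand) and Ppara at chr15:85735526-85735775 (plus strand). Capitals mark matches, on either strand, to any of 4 motifs. The first is the TATA box, searched as TATAAA. The next is the GC box, which Sp1 and its relatives bind, searched as GGGCGG. The third is the CCAAT box, searched by the letters of its name. The last is the core of the cyclic AMP response element, searched as TGACGT.
Slc1a3: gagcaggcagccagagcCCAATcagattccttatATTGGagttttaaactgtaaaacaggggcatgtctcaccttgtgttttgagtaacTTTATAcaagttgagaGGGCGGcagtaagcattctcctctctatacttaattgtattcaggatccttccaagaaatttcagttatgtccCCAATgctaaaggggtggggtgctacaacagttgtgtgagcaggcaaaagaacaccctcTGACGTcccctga
Ghr: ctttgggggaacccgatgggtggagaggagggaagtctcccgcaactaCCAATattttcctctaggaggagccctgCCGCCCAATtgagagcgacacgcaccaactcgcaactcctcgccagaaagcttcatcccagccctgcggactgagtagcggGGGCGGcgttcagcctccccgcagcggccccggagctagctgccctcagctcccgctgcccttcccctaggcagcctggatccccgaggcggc
Fam13a: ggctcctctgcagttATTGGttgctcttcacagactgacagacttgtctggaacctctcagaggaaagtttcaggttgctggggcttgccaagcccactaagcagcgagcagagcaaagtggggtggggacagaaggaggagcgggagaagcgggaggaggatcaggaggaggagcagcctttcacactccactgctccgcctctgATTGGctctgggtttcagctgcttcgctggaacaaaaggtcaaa
Ppara: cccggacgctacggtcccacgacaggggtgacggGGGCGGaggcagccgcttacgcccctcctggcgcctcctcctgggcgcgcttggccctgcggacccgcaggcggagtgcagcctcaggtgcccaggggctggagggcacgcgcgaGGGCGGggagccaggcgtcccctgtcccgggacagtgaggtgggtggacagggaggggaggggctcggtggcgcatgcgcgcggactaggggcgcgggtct
The 4 windows differ in base composition, with a G and C content of 44.8% in Slc1a3, 65.6% in Ghr, 56% in Fam13a and 76.4% in Ppara. Slc1a3 holds a match to each of the 4 motifs, Ghr GC boxes and CCAAT boxes, of which 1 pair overlaps, Fam13a only CCAAT boxes and Ppara only GC boxes. RefSeq lists another Ghr promoter, at chr15:3581843-3582092, which holds a TATA box and a CCAAT box and no GC box and is not printed. None of the 4 windows holds the direct repeat of AGGTCA with 1 base between that PPAR and RXR bind. Over all 32851 promoters of the table the shares with a match are 12.4% for the TATA box, 32.7% for the GC box, 33.8% for the CCAAT box, 6.47% for the core of the cyclic AMP response element and 0.338% for the PPAR and RXR repeat. Among promoters of genes higher in Ad Ib than in the remaining labelled nuclei, 52.3% hold a GC box and 8.86% a TATA box, beside 60.0% and 7.11% of all genes tested. For genes lower in Ad Ib the shares are 54.5% and 9.48%, so both sets depart from all genes tested in the same direction. A match is a string of letters and says nothing of binding.

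Against the pooled remaining labelled nuclei, 3763 genes averaged at least 50 CPM over both sums and were tested by size, where a gene is called if it differs at least 2-fold and its interval excludes 0. Of these, 492 (13.1%) were higher and 543 (14.4%) lower in Ad Ib, with a median log2 ratio over all tested genes of −0.03. The split depends on the scaling: with TMM scaling of the sums, which moves that median to −0.34, 306 were higher and 900 lower. In nuclear-encoded UMIs the pool holds 1237126 of Ad IIa, 516172 of Ad IIc, 143596 of Ad Ia and 140743 of Ad IIb. Ad IIa thus weighs most in it. With equal weight per label 291 were higher and 359 lower. Against single labels the calls were 511 (13.4%) higher and 618 (16.3%) lower than Ad IIa, 467 (12.5%) and 663 (17.8%) than Ad IIb, and 1340 (38.5%) and 888 (25.5%) than Ad IIc.

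The leading genes of this comparison fall into a set that was also above the unlabelled barcodes and a set that was not. In the first are Rasl12, a Ras-like small GTPase, at 291 CPM, beside 5.66 in Ad IIa and 32.0 in unlabelled barcodes (log2 3.31 and 3.20), and Lrig1, a negative regulator of ErbB receptors, at 166 CPM (3.56 and 2.86). Cntn4, a contactin of neuronal contacts, had 13 UMIs in 12 nuclei of Ad Ib (108 CPM), beside 3.18 CPM in unlabelled barcodes. Pdgfrb, the platelet-derived growth factor receptor of pericytes, stood at 150 CPM with log2 ratios of 4.16 and 2.10. In the second set are Runx1, a blood transcription factor, with 258 CPM in Ad Ib and 273 in unlabelled barcodes, and Dock10, an exchange factor of lymphoid cells, with 407 and 449 CPM. Fyb, an adaptor of T cells and platelets, had 166 and 220 CPM, and Arhgap15, a Rac-inactivating protein of leukocytes, 407 and 698 CPM. Their log2 ratios against the remaining labelled nuclei were 3.72, 3.51, 3.83 and 3.44, and against the unlabelled barcodes −0.06, −0.13, −0.37 and −0.76. These 4 genes were thus called higher than in the pool of the other labels and were not called against the barcodes that the authors left without a label. Neither they nor Rasl12, Lrig1, Cntn4 and Pdgfrb were among the 10 leading genes higher than in Ad Ia.

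The genes furthest below the remaining labelled nuclei were for the most part those of Ad IIa and Ad IIb. Cyyr1 had 2174 CPM in Ad IIa, 2167 in Ad IIb and 366 in Ad Ib (log2 −2.02 against the pooled nuclei). In the same order Emcn, the endothelial surface protein endomucin, had 477, 718 and 58.2 CPM (−2.47), and Gpihbp1, which carries lipoprotein lipase across capillary endothelium, 441, 341 and 33.3 CPM (−3.00). Cdh13, a cadherin that binds adiponectin, followed with 2306, 1471 and 432 CPM (−1.82). Tmem182 had 0 UMIs in Ad Ib, under the limit of 24.9 CPM, and 134 CPM in Ad IIa.

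Against the unlabelled barcodes, 3781 genes were tested, and 355 (9.39%) were higher and 258 (6.82%) lower in Ad Ib, with a median over all tested genes of 0.04. TMM scaling moved the median to −0.17 and the split to 244 higher and 483 lower. The leading higher genes included Klb, the co-receptor of fibroblast growth factor 21, at 108 CPM against 9.53 (log2 3.54), and Erbb4, a receptor of neuregulins, at 133 against 13.5 (3.33). Sgcd, delta-sarcoglycan, which is not among the 10 leading genes here, had 665 against 146 (2.20). St6galnac5, a ganglioside sialyltransferase, had 366 against 38.1 (3.27), Cntnap2, a neurexin-family protein, 99.8 against 7.94 (3.69), and Rgs7, a regulator of G-protein signalling, 266 against 36.3 (2.89). All 6 were also higher than in the remaining labelled nuclei, and against Ad Ia only Sgcd was called (log2 −1.42).

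The 10 leading genes lower than in unlabelled barcodes were the globins Hbb-bs, Hbb-bt, Hba-a1 and Hba-a2 with Ptprc, Rad21, Nop10, Tmsb4x, Polr1d and Gapdh. Hbb-bs, a beta-globin, stood at 150 CPM against 4027 (log2 −4.71), and Ptprc, the leukocyte antigen CD45, at 24.9 CPM (3 UMIs) against 550 (−4.24, with an interval of −6.74 to −2.91). Tmsb4x, thymosin beta 4, had 549 against 1612 CPM (−1.54), and Gapdh, the glycolytic enzyme, 74.8 against 296 (−1.91). Hbb-bs and Ptprc mark red cells and leukocytes, for which the authors' labels of this library hold no name.

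Against Ad Ia the profile differed least. Of 3669 genes tested, 162 (4.42%) were higher and 172 (4.69%) lower in Ad Ib, with a median of −0.05, and without Malat1, Gm42418 and AY036118 in the total the split was 221 and 127. The split also turned with depth, to 235 higher and 143 lower at 1000 UMIs or more (median over all genes 0.20) and 78 higher and 167 lower below (median −0.30). Of the 162 higher genes 79 were called again among the deep nuclei and 34 among the shallow ones. The 10 leading genes of the lower side were Bicra, Lgals12, Slc1a5, Sgcd, Cpeb3, Ghr, Tln2, Acaca, Irs1 and Fam13a. Their log2 ratios included those of Ghr (log2 −1.15, or 2.22-fold lower), Fam13a (−1.17), Irs1, an adaptor of the insulin receptor (−1.61), Acaca, acetyl-CoA carboxylase of fatty acid synthesis (−1.34), and Slc1a5, a glutamine transporter (−1.67). Lgals12, a galectin of lipid droplets, had 3 UMIs in Ad Ib and 209 CPM in Ad Ia (−2.87, with an interval of −5.42 to −1.38). The higher side held endothelial genes, with Kdr, a receptor of vascular endothelial growth factor, at 183 against 34.8 CPM (2.29), and S1pr1, a sphingosine 1-phosphate receptor of endothelium and lymphocytes, at 125 against 13.9 CPM (2.89). It also held mitochondrial proteins encoded in the nucleus, with Cox7a2, a subunit of cytochrome oxidase, at 183 against 27.9 CPM (2.58), Cox17, its copper chaperone, at 158 against 27.9 CPM (2.37), and Cisd1, an iron-sulfur protein of the outer membrane, at 116 against 6.96 CPM (3.53). In Ad Ia 1 UMI makes 6.96 CPM and 5 UMIs make 34.8 CPM. The Ad Ia levels of Kdr, S1pr1, Cox7a2, Cox17 and Cisd1 thus rest on 1 to 5 UMIs, and the size of these ratios is uncertain.

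Hemoglobin messages were higher in Ad Ib than in Ad Ia largely through 1 nucleus. Hba-a2 and Hba-a1, the alpha-globins, had log2 ratios of 2.71 and 2.62 against Ad Ia. The Ad Ib nuclei held 122 hemoglobin UMIs, of which 71 (58.2%) fell in a nucleus of 1203 UMIs, and 29 of the 41 nuclei with any held exactly 1. Without that nucleus the sum fell from 1015 to 428 CPM, and its log2 ratio to Ad Ia from 2.17 to 0.93 (0.28 to 1.63). For Hba-a2 the ratio was then 1.55 and for Hba-a1 1.41.

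The list of 20 mature adipocyte genes was not high as a whole in Ad Ib beside the pooled labels, Ad Ia or the unlabelled barcodes. Its median log2 ratio was 0.09 against Ad IIa, 1.36 against Ad IIb and −1.71 against Ad IIc. Over all genes these medians were −0.10, −0.12 and 0.47. Of 19 tested, 3 were higher and 6 lower than in the remaining labelled nuclei, where 13.1% and 14.4% of all genes were called, with a median of −0.59. Among barcodes under 1000 UMIs that median was −1.27, beside 0.31 over all genes. The higher genes were Tshr, the thyrotropin receptor (565 CPM, log2 2.12), Adrb3, the beta-3 adrenergic receptor (308 CPM, 1.27), and Acsl1, which activates fatty acids (690 CPM, 1.01). The lower genes were Adipoq, Pnpla2, the first triglyceride lipase (−1.58), Cd36, a fatty acid carrier (−1.40), Cebpa, an adipogenic transcription factor (−1.36), Fabp4, a fatty acid binding protein (−1.34), and Cfd, the complement protease adipsin (−1.14). Against unlabelled barcodes 5 were higher, adding Plin1, the droplet coat protein perilipin (1.27), and Lipe, hormone-sensitive lipase (1.02), to the same 3, and 4 were lower. Over all genes 9.39% were higher and 6.82% lower than there. The median of the list against unlabelled barcodes was −0.32, beside 0.04 over all genes. With 5 UMIs added to each sum in place of 0.5 these were 0.03 and 0.47, so the list lay below all genes under both. Against Ad Ia none was higher and 4 were lower (Adrb3 −1.17, Tshr −1.13, Acsl1 −1.08, Plin1 −1.04), beside 4.42% and 4.69% of all genes. The list median was −0.37, beside −0.05 over all genes. Fabp4 and Cfd lay above Ad Ia, each at a log2 ratio of 0.62 and within 2-fold.

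Part of the regulators of fat-cell transcription were called higher than in both larger references. Of 18 transcription factors tested, 7 were higher and 1 lower than in the remaining labelled nuclei (median 0.48), and 8 higher and 1 lower than in unlabelled barcodes (median 0.83). Over all genes these shares were 13.1% and 14.4% against the remaining labelled nuclei and 9.39% and 6.82% against the unlabelled barcodes. Against Ad Ia, where 4.69% of all genes were lower, 2 of 19 were lower and none higher (median −0.44). Mlxipl, the carbohydrate-responsive factor ChREBP, had 116 CPM in Ad Ib, 306 in Ad Ia and 22.8 in unlabelled barcodes. Srebf1, the sterol-responsive driver of lipogenesis, had 150, 69.6 and 53.5 CPM, and Tcf7l2, an effector of Wnt signalling, 565, 843 and 219 CPM. Ebf2, an early B-cell factor that also acts in fat precursors, stood at 258 CPM, and the unlabelled barcodes at 140 and Ad IIa at 12.1. Pparg, the master regulator of adipogenesis, was not called in any of the 3 comparisons, at 773 CPM beside 622 in unlabelled barcodes and 2012 in Ad IIa.

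In the insulin and growth hormone list, 5 of 19 tested genes were higher and 2 lower than in the remaining labelled nuclei (median 0.27, and −0.04 with TMM scaling), beside 13.1% and 14.4% of all genes. Against unlabelled barcodes 4 were higher and none lower (median 0.56), beside 9.39% and 6.82% of all genes. Beside Ghr and Pik3r1, the regulatory subunit of PI3-kinase (log2 1.01 against the remaining labelled nuclei), the higher genes were Insr, the insulin receptor (399 CPM, log2 1.29 and 1.73), Irs1 (175 CPM, 1.24 and 1.45) and Tbc1d4, which holds glucose transporter vesicles back until insulin acts (449 CPM, 2.19 and 1.71). Against Ad Ia 4 of 19 were lower and none higher (median −0.48), beside 4.69% and 4.42% of all genes. In the lipolysis list, Adcy5, an adenylyl cyclase that makes cyclic AMP, had 233 CPM against 40.8 in unlabelled barcodes (2.53), and Pde3b, the phosphodiesterase through which insulin lowers cyclic AMP, 832 against 355 (1.23). That list had 5 genes higher and 1 lower of 13 than the unlabelled barcodes (median 0.80), beside 9.39% and 6.82% of all genes. It had 3 lower and none higher than Ad Ia (median −0.67), beside 4.69% and 4.42% of all genes. Against the remaining labelled nuclei 3 of its 14 genes were higher and 3 lower, beside 13.1% and 14.4% of all genes, and the median of 0.07 became −0.24 with TMM scaling and −0.35 among barcodes of at least 1000 UMIs.

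Among genes of triglyceride synthesis and the droplet, 5 of 17 were higher, beside 9.39% of all genes, and none lower than in unlabelled barcodes (median 0.49), with Dgat1, which closes triglyceride synthesis, at 150 against 46.6 CPM (1.72). Against the remaining labelled nuclei 4 were higher and 1 lower, beside 13.1% and 14.4% of all genes, and the median was 0.14, or −0.17 with TMM scaling. Against Ad Ia 2 of 17 were higher and 3 lower (median −0.48), beside 4.42% and 4.69% of all genes. Fatty acid uptake split by gene: Slc27a1, a fatty acid transport protein, was higher than in both references (1.92 and 2.18), while Cd36, Cav1, Cav2, Cavin1, Cavin2, Fabp4, Fabp5 and Gpihbp1 made up the 8 of 14 that were lower than in the remaining labelled nuclei (median −1.17), beside 14.4% of all genes. Of secreted products, Nrg4, a neuregulin of fat (266 CPM, 2.06 and 2.17), Vegfa, the vascular growth factor (99.8 CPM, 1.63 and 1.84), and Agt, angiotensinogen (158 CPM, 1.15 and 1.44), were higher than in both references, and 6 of 17 were lower than in the remaining labelled nuclei (median −0.82), beside 14.4% of all genes. Vegfa was lower than in Ad Ia (341 CPM, −1.73). By label the median of the secreted products was −0.09 against Ad IIa, 0.83 against Ad IIb and −1.38 against Ad IIc.

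**Figure D3:**
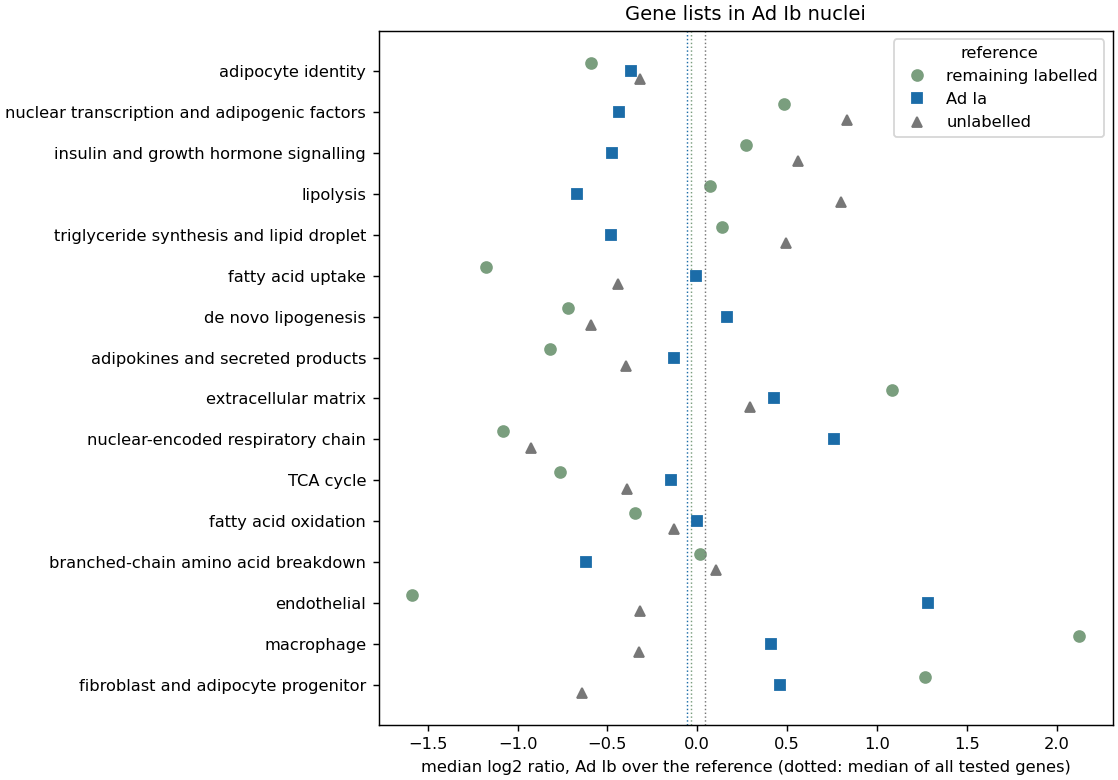
Median log2 ratio of Ad Ib over 3 references for 16 gene lists, over the list genes that passed the minimum level. Dotted lines are the medians of all tested genes (−0.03, −0.05 and 0.04). The respiratory chain and endothelial medians lie on opposite sides of 0 against Ad Ia and against the remaining labelled nuclei, and medians within about 0.3 of 0 can change side with the scaling.

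For genes of the respiratory chain encoded in the nucleus, those called were higher than in Ad Ia and lower than in the remaining labelled nuclei and the unlabelled barcodes. Over all genes 4.42% were higher than in Ad Ia, 14.4% lower than in the remaining labelled nuclei and 6.82% lower than in unlabelled barcodes. Of 53 tested, 30 were lower and none higher than in the remaining labelled nuclei (median −1.08), and of 52, 25 were lower and none higher than in unlabelled barcodes (median −0.92). Against Ad Ia 10 of 40 were higher and none lower (median 0.76). Ndufb9, a subunit of complex I, had 108 CPM in Ad Ib, 20.9 in Ad Ia and 634 in Ad IIc, with a log2 ratio to Ad Ia that turned to −1.36 among barcodes of at least 1000 UMIs. Cox6c, a subunit of cytochrome oxidase, had 208, 76.6 and 1104 CPM. Genes of cytosolic ribosomal proteins were likewise above Ad Ia, with a sum of 27276 CPM in Ad Ib, 15913 in Ad Ia, 38334 in Ad IIa, 53941 in unlabelled barcodes and 84720 in Ad IIc. In the citric acid cycle list 7 of 21 were lower than in the remaining labelled nuclei, beside 14.4% of all genes, and none higher (median −0.76). By label its median was −0.002 against Ad IIa, 0.36 against Ad IIb and −1.60 against Ad IIc. The respiratory chain medians were −0.45, 0.30 and −2.20 in the same order, and those of all genes −0.10, −0.12 and 0.47. The median percent of mitochondrial UMIs was 5.33 in Ad Ib, 3.83 in Ad Ia, 4.63 in Ad IIa, 6.05 in Ad IIc and 10.9 in unlabelled barcodes, and its part in these sums was not tested.

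Matrix genes were among the groups higher than in the remaining labelled nuclei, with 8 of 16 called higher, beside 13.1% of all genes, and none lower (median 1.08). Against Ad Ia 2 of 17 were higher and 2 lower, beside 4.42% and 4.69% of all genes. Col5a3 and Col6a3, fibrillar and microfibrillar collagen chains, had 133 and 141 CPM (log2 2.94 and 2.77). Col1a2 and Col1a1, the chains of type I collagen that fibroblasts make, had 274 and 125 CPM in Ad Ib, 104 and 34.8 in Ad Ia and 331 and 201 in unlabelled barcodes. Among barcodes of at least 1000 UMIs their log2 ratios to Ad Ia turned to −0.031 and −0.14. Against unlabelled barcodes, where 9.39% of all genes were called higher, 3 of 19 were higher, among them Lama4, a laminin chain of basement membranes (383 against 161 CPM, 1.26, and −0.072 among barcodes of at least 1000 UMIs), and none lower (median 0.29).

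Over all nuclei the endothelial, macrophage and fibroblast sums of Ad Ib lay between those of Ad Ia and of the unlabelled barcodes, and the mural sum lay above both. Among nuclei of at least 1000 UMIs the endothelial sum was 4638 CPM, against 1098 in Ad Ia and 4318 in unlabelled barcodes, and among shallower ones 1631 against 719 and 1359. The deep sum was uneven: 6 of the 24 nuclei held 131 of its 188 UMIs, the others came to 2359 CPM, and without the richest nucleus the sum was 4302 CPM. The 15 endothelial genes summed to 2644 CPM (2362 to 2952) in Ad Ib, 1010 in Ad Ia, 11813 in Ad IIa, 15056 in Ad IIb, 612 in Ad IIc and 3286 in unlabelled barcodes, and all 15 had UMIs in Ad Ib. The sum was 2.61-fold that of Ad Ia, and 7 of 10 tested genes were higher, beside 4.42% of all genes, and none lower than there. Pecam1, the adhesion molecule CD31, had 283 CPM in Ad Ib and 132 in Ad Ia, and 15.8% of Ad Ib nuclei had its UMI, beside 15.7% of unlabelled barcodes. Against unlabelled barcodes 1 of 14 endothelial genes was lower and none higher, beside 6.82% and 9.39% of all genes (median −0.32, beside 0.04 over all genes). With equal weight per nucleus the list and all genes were at 0.17 and 0.11, among barcodes of at least 1000 UMIs at 0.018 and 0.27, and below that at 0.34 and 0.18. The 14 macrophage genes summed to 1322 CPM, against 1093 in Ad Ia, 414 in Ad IIa, 246 in Ad IIc and 2167 in unlabelled barcodes. All 14 had UMIs in Ad Ib, with Mrc1, a mannose receptor, at 166 CPM and C1qa, a complement subunit, at 200 CPM. The 14 genes of fibroblasts and fat precursors summed to 1921 CPM, against 1462 in Ad Ia and 3528 in unlabelled barcodes. All 9 tested lay below the unlabelled barcodes, and 3 were called lower, beside 6.82% of all genes (Dcn, the proteoglycan decorin, −1.38, Gsn, gelsolin, −1.01, and Ly6a, the stem cell antigen Sca-1, −1.59). The 10 mural genes summed to 491 CPM (59 UMIs), against 237 in Ad Ia and 242 in unlabelled barcodes, with Pdgfrb called higher than in each reference. Only 3 of the mural genes were tested. Against the remaining labelled nuclei and against the unlabelled barcodes 2 were called higher, beside 13.1% and 9.39% of all genes, and 1 lay below. Against Ad Ia 1 was called higher, beside 4.42% of all genes, and none lay below.

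Markers of further cell types ranged from 0 UMIs upward. All 10 genes of epididymal and gonadal epithelium had 0 UMIs in Ad Ib (sum under 24.9 CPM), and of 10 mesothelial genes 7 were at 0 and the sum was 24.9 CPM. The T-cell genes summed to 299 CPM (6 of 13 at 0), against 174 in Ad Ia and 769 in unlabelled barcodes. The dendritic cell genes summed to 457 CPM (5 of 10 at 0), against 265 and 576, and the Schwann cell genes to 208 CPM (2 of 7 at 0), against 341 and 144. The B-cell genes, which include the adipocyte factor Ebf1, summed to 2528 CPM (2 of 8 at 0), against 4652 in Ad Ia and 1659 in unlabelled barcodes. The part of RNA from other cells in the levels of Ad Ib was not tested.

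For most genes that set Ad Ia apart from the unlabelled barcodes, Ad Ib lay in between. Among 1921 genes averaging at least 100 CPM over Ad Ia and the unlabelled barcodes, 373 were higher in Ad Ia, and Ad Ib fell between the 2 values for 342 of them (91.7%). Of the 343 lower in Ad Ia it fell between for 321 (93.6%). On the scale of log2(CPM + 10) the median position, with 0 at the unlabelled barcodes and 1 at Ad Ia, was 0.57 (quartiles 0.43 to 0.73) and 0.53 (0.35 to 0.69). These genes were chosen for a difference between the 2 ends, which by itself favours a place in between, and no other label was placed this way. The deposited sub-cluster names of Ad Ib and Ad Ia are 2_0 and 2_1. Across the 3486 genes with at least 50 CPM in Ad Ib the rank correlation of its levels was 0.757 with Ad Ia, 0.730 with the unlabelled barcodes, 0.558 with Ad IIa, 0.513 with Ad IIb and 0.404 with Ad IIc, as a description across genes that share the library.

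Nucleus by nucleus, fewer Ad Ib than Ad Ia nuclei were nearest to their own label. Each nucleus was set against the summed profiles of the 5 labels and the unlabelled barcodes, itself taken out of its own sum, and the profile of highest likelihood was kept. Of the Ad Ib nuclei 73 (48.0%, 39.9 to 56.3) were nearest to Ad Ib, 41 (27.0%) to Ad Ia, 34 (22.4%) to the unlabelled barcodes, 2 to Ad IIa and 2 to Ad IIc. Of the 106 Ad Ia nuclei 96 (90.6%) were nearest to their own label, and of the 58 Ad IIb nuclei 26 (44.8%). Median depth was 678.5 UMIs in Ad Ib, 1077 in Ad Ia and 2313 in Ad IIb. The summed profiles also differ in size, with 120252 nuclear-encoded UMIs in Ad Ib, 143596 in Ad Ia and 3777938 in unlabelled barcodes. To every gene of each profile 0.5 UMIs were added, which weighs more in a small sum. The part of depth and of profile size in these shares was not tested. Of the 3479 unlabelled barcodes 96 (2.76%) were nearest to Ad Ib, but with the 5 labels as the only choices 1410 (40.5%) were, beside 83 (2.39%) for Ad Ia. Only Ad IIc took more of them, with 1563 (44.9%).

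Some values of the Ad Ib nuclei ran in order across the nearest profiles, and others did not. Those nearest to Ad Ia had 10573 CPM of Ghr, 6944 of Slc1a3 and an endothelial sum of 1710 CPM. Those nearest to Ad Ib had 8702, 6023 and 2539 CPM. Those nearest to the unlabelled barcodes had 4943, 3114 and 3081 CPM, with an adipocyte identity sum of 35501 CPM against 21251 in those nearest to Ad Ia, and a median mitochondrial percent of 7.03 against 4.35. Out of order were the macrophage sum, at 1733 CPM in nuclei nearest to Ad Ib, 1082 nearest to Ad Ia and 931 nearest to the unlabelled barcodes, and Gm26917, at 30658, 29591 and 15792.5 CPM. The grouping used these same genes, so the values describe it and test nothing. In all, 134 nuclei had both Ghr and Slc1a3, and the 3 with neither were all nearest to the unlabelled barcodes.

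**Figure D4:**
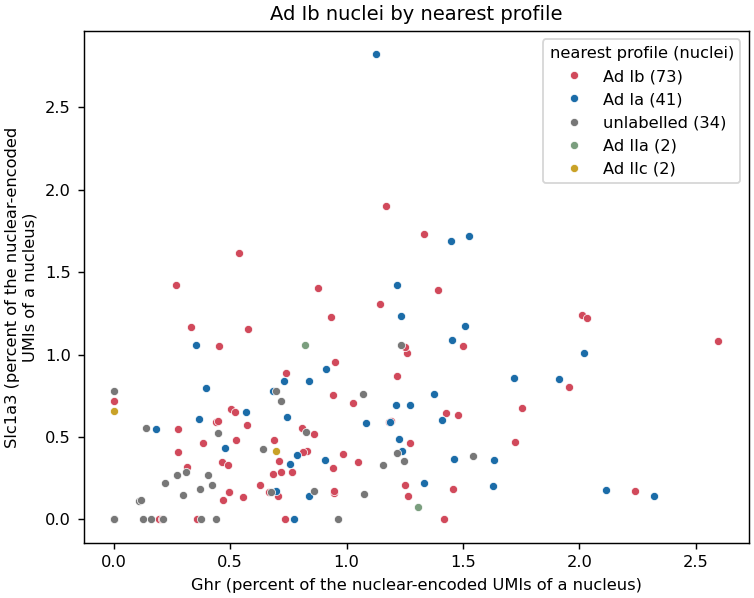
Each point is 1 Ad Ib nucleus, placed by the percent of its nuclear-encoded UMIs on Ghr (horizontal) and Slc1a3 (vertical) and coloured by its nearest profile. The 34 nuclei nearest to the unlabelled barcodes lie mostly at the lower left, and the 41 nearest to Ad Ia and 73 nearest to Ad Ib overlap over the rest.

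Gene span moved with the ratio against all 3 references. Genes higher than in the remaining labelled nuclei spanned a median of 93.6 kb from first to last base, those lower 25.5 kb, and all tested 52.4 kb. Against unlabelled barcodes the medians were 87.4 kb for higher, 8.29 kb for lower and 56.4 kb for all tested genes. Against Ad Ia the order was the reverse, with 18.5 kb for higher, 82.1 kb for lower and 61.1 kb for all. For genes under 10 kb the median log2 ratio was −0.82 against the remaining labelled nuclei, −0.74 against unlabelled barcodes and 0.62 against Ad Ia, and for genes over 300 kb it was 0.44, 0.36 and −0.19. Ghr spans chr15:3317755-3583352 on GRCm38 and Slc1a3 chr15:8634124-8710807. The part of gene span in the gene lists was not tested.

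**Figure D5:**
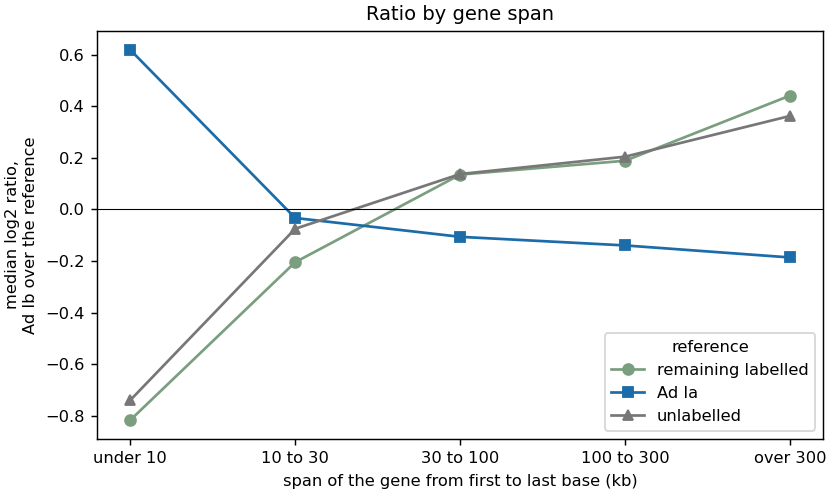
Median log2 ratio of Ad Ib over 3 references (vertical) for tested genes in 5 classes of genomic span in kb (horizontal). Short genes lie at −0.82 and −0.74 against the remaining labelled and the unlabelled barcodes and at 0.62 against Ad Ia, and the order is the reverse over 300 kb.

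Since Ad Ib is shallower than Ad Ia, both were split at 1000 UMIs, an alternative added after the data were seen. At or above it were 24 Ad Ib and 55 Ad Ia nuclei. The log2 ratio of Ghr was −1.15 over all nuclei, −1.46 at or above 1000 UMIs and −1.22 below, and that of Slc1a3 −0.48, −0.61 and −0.46. Fam13a gave −1.17, −1.85 and −1.01, and the endothelial sum 1.39, 2.08 and 1.16. The ribosomal protein sum gave 0.78, 0.74 and 0.78, and the respiratory chain sum 0.67, 0.39 and 0.80. The direction of these 6 was therefore the same among deep and among shallow nuclei. The macrophage sum gave 0.27, 0.10 and 1.18, and the adipocyte identity sum −0.05, −0.46 and 0.05, so neither kept one size. Fabp4 was at 0.62 over all, 0.14 among deep and 0.72 among shallow nuclei.

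The same 2 labels occur in the thymic library, with 49 Ad Ib nuclei (24582 nuclear-encoded UMIs) and 35 Ad Ia nuclei. Of 551 genes averaging at least 200 CPM in both pairs, 345 had the same sign of the ratio of Ad Ib to Ad Ia in both libraries. Of 110 averaging at least 500 CPM, 88 had. The epigonadal and thymic median ratios were −0.32 and −0.07 over the 551 genes, and −0.58 and −0.39 over the 110. All lie below 0, which by itself raises the number of shared signs. The labels also rest on the same joint annotation, so agreement between both libraries describes the labelling. Ghr was lower in Ad Ib in each, at −1.15 in the epigonadal and −1.80 in the thymic library. Ppara was at −0.97 and 0.92, and Fam13a at −1.17 and at 0.17 with an interval of −0.27 to 0.61 that includes 0. Across the 3486 genes the levels of epigonadal Ad Ib had a rank correlation of 0.575 with thymic Ad Ib, 0.529 with thymic Ad Ia and 0.598 with the unlabelled thymic barcodes. On this measure thymic Ad Ib scored below epigonadal Ad Ia (0.757) and the epigonadal unlabelled barcodes (0.730). These sums also differ in library and depth, at 24582 nuclear-encoded UMIs against 143596 and 3777938. The part of library and depth in the correlation was not tested.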

How the data were processed

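Droplet RNA libraries of 2 fat sources were used, 1 per group. The deposited matrices hold raw UMI counts for 32285 genes, and per the file headers cellranger 7.2.0 wrote them, and Cell Ranger ARC 2.0.2, Seurat 5.1.0 and genome build mm10 are named in the submitters' processing notes. The sources used here do not say whether intron reads were counted. Labels and singlet calls are the authors' deposited values, and the percent of mitochondrial UMIs was computed from the counts. The epigonadal library held 6504841 UMIs in 5043 barcodes, none under 500, and 147 barcodes occur in both libraries.

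Counts were summed over the nuclei of a label and scaled to CPM of nuclear-encoded genes. A ratio added 0.5 UMIs to each sum, and its interval is the exact binomial one of the split. Genes averaging at least 50 CPM over both sums were tested, and called at 2-fold or more with an interval that excludes 0. The calculation was tested on simulated data. Python 3.11.15, numpy 2.4.6, scipy 1.17.1, pandas 2.3.3, matplotlib 3.10.9 and R 4.3.3 with edgeR 4.0.16 (TMM factors only) were used. Alternatives changed the scaling, the weights, the added count, the minimum level and the barcodes kept.

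The members and all gene lists were chosen with earlier results of these data known. Named genes are the label's markers, the adipocyte genes, up to 3 of highest level and of highest and lowest ratio in each other list, the 10 of highest level, and the leading called genes of each comparison by the interval limit nearer 0, leaving mitochondrial, ribosomal and predicted genes out of the ranking. Cav1, Cavin1, Cavin2, Cox6c, Tcf7l2 and Gm26917 were named in addition, after their values were seen, and 1 gene of the ranking is not reported here. Chromatin data and the 6-month nuclei were not used here.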

Additional observations from a re-analysis of the deposited data

Results flagged for a closer look

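For 4 genes the log2 ratio of Ad Ib over Ad Ia had opposite signs in the epigonadal and the thymic library, each with an interval that excludes 0. With 1 library on each side the difference between libraries was not tested, and the intervals cover counting error only. Ppara was at −0.97 (−1.78 to −0.24) in the epigonadal and at 0.92 (0.29 to 1.60) in the thymic library. Cfd, the protease adipsin, was at 0.62 (0.38 to 0.85) and −2.45 (−3.72 to −1.49). The predicted gene Gm26917 was at −0.14 (−0.21 to −0.07) and 0.89 (0.57 to 1.21). Its epigonadal ratio turned with depth, to 0.26 (0.14 to 0.38) among barcodes under 1000 UMIs, and thymic Ad Ib had a median of 442 UMIs. Gm42418, which alone took 12.9% of the UMIs of epigonadal Ad Ib, was at 0.60 (0.57 to 0.64) and −0.23 (−0.31 to −0.15).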

How the results depend on the processing

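No paired analysis was possible because each group is 1 library. The splits at 1000 UMIs and the sums without the nucleus richest in hemoglobin or endothelial UMIs were chosen after seeing the data. Of the counts, shares and medians of the adipocyte list that answer a comparison, 22 values moved under alternatives, all of them counts or shares. The other 85 were counts within 1.5 times, a share within its interval, or medians within the wide interval of a median over the list's genes. Some of the 85 could not move, since no barcode fell under the setting of at least 500 UMIs. That interval let the adipocyte median pass at −1.27 among barcodes under 1000 UMIs (remaining labelled nuclei) and at 0.03 with 5 UMIs added (unlabelled barcodes). The cause was not tested except where fewer genes or nuclei enter.

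Genes higher than in the remaining labelled nuclei numbered 306 with TMM scaling, 291 with equal weight per label, 876 and 234 at minimum levels of 20 and 100 CPM, and 792 among barcodes under 1000 UMIs. Genes lower numbered 900 with TMM scaling, 359 with equal weight per label, 193 with 5 UMIs added, 344 at 100 CPM and 236 among barcodes of at least 1000 UMIs. Against Ad Ia, 253 were higher at 20 CPM, 84 at 100 CPM and 78 under 1000 UMIs, and 98 were lower with 5 UMIs added. Against unlabelled barcodes, 561 were higher at 20 CPM and 173 at 100 CPM, and 483 were lower with TMM scaling, 409 with equal weight per nucleus, 56 with 5 UMIs added, 131 at 100 CPM and 127 at 1000 UMIs or more. With the 5 labels as the only profiles, 65.8% of Ad Ib nuclei were nearest to Ad Ib.

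Of single genes, list medians and shares, 4229 values stayed close, 308 moved and 18 reversed. Many of the 4229 could not move. The setting of at least 500 UMIs kept every barcode, and the minimum level does not enter the ratio of a single gene. The median of the depot patterning list against the remaining labelled nuclei became −0.22 at 20 CPM. Among barcodes of at least 1000 UMIs the log2 ratio against the remaining labelled nuclei was −0.012 for Dcn. Against Ad Ia it was −0.14 for Col1a1, −0.031 for Col1a2, 0.015 for Gpat3 and −1.36 for Ndufb9. Against unlabelled barcodes it was −0.072 for Lama4, −0.24 for Mccc2 and 0.062 for the median of the T-cell list. Under 1000 UMIs it was −0.51 for Hbb-bs, 0.46 for Kdr, 0.15 for Klf6, 0.28 for Pecam1, 0.20 for S1pr1, 0.15 for Tek and 0.29 for Zbtb46 against the remaining labelled nuclei, −0.18 for Pkp4 against Ad Ia, and 0.066 for Samd12 against unlabelled barcodes.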

Other observations

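Further groups of energy metabolism were measured. Of the thermogenic list 2 genes were tested against the remaining labelled nuclei, with Ppara called higher (log2 2.70) and Prdm16, a factor of brown fat identity, at 1.13 and not called. In fatty acid oxidation, none of 14 tested genes was called against the remaining labelled nuclei (median −0.34) or the unlabelled barcodes (median −0.13). Over all genes 13.1% were higher and 14.4% lower than the former, and 9.39% and 6.82% than the latter. Against Ad Ia 2 of 14 were higher and none lower, beside 4.42% and 4.69% of all genes. By label the median was 0.30 against Ad IIa, 0.95 against Ad IIb and −1.56 against Ad IIc. In branched-chain amino acid breakdown, 1 of 16 was higher than in the remaining labelled nuclei, where 13.1% of all genes were, namely Bckdhb, a subunit of the branched-chain ketoacid dehydrogenase, with 283 CPM in Ad Ib, 669 in Ad Ia and 92.9 in unlabelled barcodes. In glucose uptake and glycolysis, 5 of 8 were lower and 1 higher than in the remaining labelled nuclei, beside 14.4% and 13.1% of all genes (median −1.32), the higher one being Hk2, a hexokinase, with 291 CPM in Ad Ib and 93.2 in unlabelled barcodes. Of the PPAR target list, 2 of 11 were lower than in the remaining labelled nuclei, beside 14.4% of all genes, and none higher (median −0.44). By label the PPAR target median was −0.19 against Ad IIa, 0.66 against Ad IIb and −1.25 against Ad IIc. The glucose and glycolysis medians were −0.69, −0.08 and −2.27 in the same order.

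In the circadian clock list, 1 of 3 tested genes was higher than in the remaining labelled nuclei, the nuclear receptor Rora (649 CPM, log2 1.01), beside 13.1% of all genes. All 5 tested against Ad Ia lay below it, 1 of them called (Clock, −1.16), beside 4.69% of all genes. In the immediate early list, 5 of 10 were lower, beside 14.4% of all genes, and none higher than in the remaining labelled nuclei (median −0.90, beside −0.03 over all genes, and 0.15 beside 0.31 among barcodes under 1000 UMIs).

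The list named nuclear retained RNA includes Gm42418 and AY036118. It summed to 196853 CPM in Ad Ib, 145770 in Ad Ia, 160650 in Ad IIc and 171896 in unlabelled barcodes. Gm42418 made up 137104 CPM of that sum in Ad Ib, and whether it is retained in the nucleus was not tested. Of the 6 members tested against Ad Ia 2 were lower and none higher (median −0.22), beside 4.69% and 4.42% of all genes. Malat1 was lower in Ad Ib than in Ad Ia, at 38827 against 42891 CPM. Neat1, the scaffold of paraspeckles, stood at 848 CPM in Ad Ib, 1776 in Ad Ia, 393 in Ad IIa and 369 in unlabelled barcodes. The predicted gene Gm26917 stood at 25970 CPM in Ad Ib, 28657 in Ad Ia and 3489 in unlabelled barcodes. Genes seen in fewer than 3 labelled nuclei summed to 10436 CPM in Ad Ib and 10007 in Ad Ia, against 1571 in Ad IIa, 1869 in Ad IIb and 1364 in Ad IIc. These differences were not tested.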
